A study of Mus musculus with 12 samples.

Results

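The 10 genes described here encode proteins of the contractile actin apparatus of smooth muscle and myofibroblasts, together with the transcription factor that controls many of them. They were chosen by name, as the rows of the deposited count table whose gene name is Acta2, Actg2, Myl9, Tpm1, Tpm2, Cald1, Cnn1, Tagln, Vcl or Srf, and make up 10 of its 54447 features. All 10 were found, and 9 passed the filter on low counts. Tagln did not, with 1 to 12 counts per library.

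RNA was sequenced from NIH3T3 cells, an established line of mouse embryonic fibroblasts, infected with a lentivirus that carries a doxycycline (dox) inducible promoter and the Tet activator it needs. In N-VEGF cells the promoter drives a His-tagged N-VEGF, the N-terminal part of a long VEGF form. In NLS-N-VEGF cells the nuclear localization sequence of Cas9 is added to it. Puromycin-selected populations, not described as single clones, were harvested without dox (uninduced) or after dox (induced), giving 4 groups of 3 libraries. The uninduced groups therefore carry the construct too, and cells without it were not analysed here. The study asked which transcripts change when N-VEGF is sent to the nucleus.

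The library labels end in a number and a suffix in the form of a date, the meaning of which the labels do not state. Each group held libraries 1 and 2 with suffix _120519 and a library 2 with suffix _290419, so that 8 libraries carried the first suffix and 4 the second. No label says whether libraries of a group came from separate cultures, and p-values therefore measure the spread between these libraries, which may be technical. Libraries held 13549331 to 18982127 counts. Levels are given in CPM, counts scaled to a common library total after TMM normalisation. The limit that 3 counts allow was 0.158 to 0.221 CPM per library, which covers counting error only. The construct itself had 0.287 to 0.856 CPM in the 6 uninduced libraries and 2.57 to 17.9 CPM in the 6 induced ones, with no overlap. Of 11 fibroblast markers 10 were tested, and their summed level was 7990 to 10430 CPM per library. The 5 skeletal muscle markers summed to at most 0.25 CPM, with Myod1, Myog and Mymk at 0 in all 12 libraries. The 5 endothelial markers summed to 2.38 to 4.48 CPM, the 5 epithelial markers to 0.879 to 1.87 CPM, and the 5 leukocyte markers to 2.81 to 6.11 CPM.

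Serum response factor (SRF) binds the CArG box, a short DNA element near the start of many actin and muscle genes. Its partners of the myocardin family, MRTF-A and MRTF-B, are held in the cytoplasm by monomeric actin and enter the nucleus when actin polymerises, and the ternary complex factors of the ELK family direct SRF to immediate early genes instead. In fibroblasts the contractile targets are known as the programme that marks the change into myofibroblasts.

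The promoters are shown because SRF is defined by the element it binds. A CArG box was searched for as 2 C, then 6 bases that are each A or T, then 2 G, a pattern that reads alike on both strands. A CArG-like element allowed 1 of the 6 middle bases to be G or C. RefSeq promoter windows of 300 bases (250 before the start site and 50 after, build GRCm38.p6) matched 8 of the 10 members, and none was matched for Tagln and Actg2. The 4 windows that held either element are printed 5′ to 3′ on the strand of the gene, with the elements in capitals. They lie at chr19:34255324-34255623 on the minus strand for Acta2, chr2:156775214-156775513 on the plus strand for Myl9, chr14:20929148-20929447 on the plus strand for Vcl and chr17:46556113-46556412 on the minus strand for Srf.
Acta2: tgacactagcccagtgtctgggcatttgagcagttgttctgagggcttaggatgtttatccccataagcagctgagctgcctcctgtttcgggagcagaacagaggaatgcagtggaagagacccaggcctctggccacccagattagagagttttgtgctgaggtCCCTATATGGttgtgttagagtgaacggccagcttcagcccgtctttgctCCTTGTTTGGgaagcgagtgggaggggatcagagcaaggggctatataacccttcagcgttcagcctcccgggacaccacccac
Myl9: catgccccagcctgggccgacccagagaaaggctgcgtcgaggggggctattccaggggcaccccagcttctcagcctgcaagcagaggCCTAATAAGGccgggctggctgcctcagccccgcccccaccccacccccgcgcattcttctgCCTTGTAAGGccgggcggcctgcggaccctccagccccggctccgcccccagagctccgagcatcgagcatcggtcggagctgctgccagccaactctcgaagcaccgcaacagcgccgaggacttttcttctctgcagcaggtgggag
Vcl: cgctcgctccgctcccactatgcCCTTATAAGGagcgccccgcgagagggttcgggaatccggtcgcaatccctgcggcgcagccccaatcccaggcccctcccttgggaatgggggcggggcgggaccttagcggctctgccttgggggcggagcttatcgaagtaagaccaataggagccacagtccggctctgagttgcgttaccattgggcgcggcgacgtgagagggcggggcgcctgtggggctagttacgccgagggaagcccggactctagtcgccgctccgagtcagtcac
Srf: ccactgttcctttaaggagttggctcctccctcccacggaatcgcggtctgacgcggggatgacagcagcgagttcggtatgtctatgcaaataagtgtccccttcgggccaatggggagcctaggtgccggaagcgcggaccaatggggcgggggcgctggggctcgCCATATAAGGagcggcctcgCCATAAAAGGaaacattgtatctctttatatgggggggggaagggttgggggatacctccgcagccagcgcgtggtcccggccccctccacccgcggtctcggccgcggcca

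A strict CArG box was present in 3 of the 9 windows of members, Cald1 having 2, and in 535 of all 32851 promoter windows (1.63%). The Srf promoter held 2 of them, which began 82 and 62 bases before the start site. The Myl9 box began 161 bases before the start site, with a CArG-like element 99 bases before it, and the Vcl box began 227 bases before it. The Acta2 window held no strict box and 2 CArG-like elements, which began 84 and 34 bases before the start site. These distances count from the RefSeq start site of each window, which for Acta2, Myl9 and Srf is not the end of the gene given below. CArG-like elements were present in 8.50% of all windows. Neither pattern occurred in the windows of Cnn1, Tpm1, Tpm2 and Cald1, which says only that these letters are not in those 300 bases. A match is a description of the sequence, and no binding was measured in this series.

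**Figure D1:**
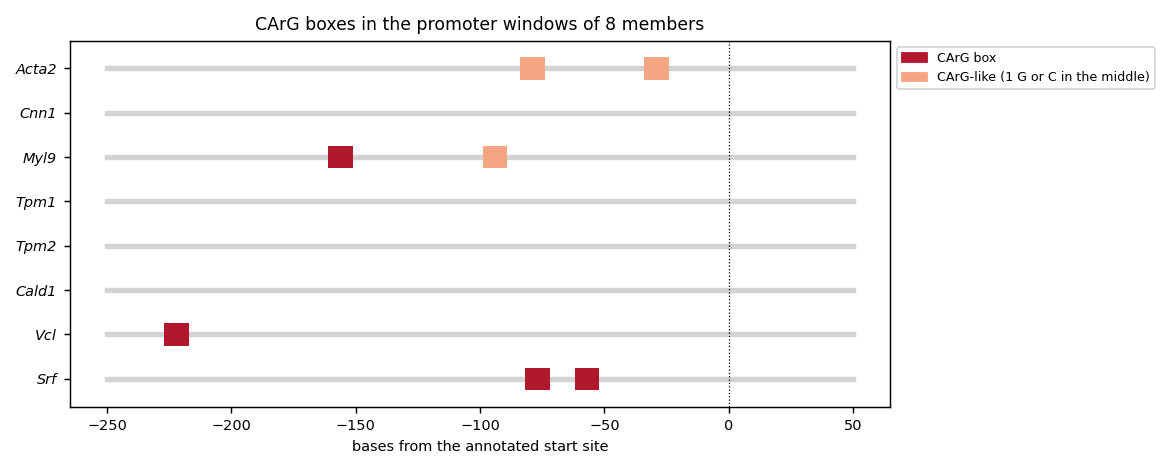
Position of CArG boxes (dark) and CArG-like elements (light) in the promoter windows of the 8 matched members, in bases from the annotated RefSeq start site (0). Srf, Vcl and Myl9 hold strict boxes, Acta2 holds 2 CArG-like elements, and the windows of Cnn1, Tpm1, Tpm2 and Cald1 hold neither.

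Levels of different genes were compared per kilobase of exon. The length was the union of all annotated exons, 12041 bases for Cald1, 6485 for Tpm1, 2909 for Tpm2 and 2196 for Acta2. The transcripts in use may be shorter, and the order with other lengths was not tested. Before division by length Cald1 was the highest member, at a mean of 476 CPM. Per length, the tropomyosins Tpm2 and Tpm1 were the highest members, at 67.3 ± 12.4 and 54.0 ± 10.9 CPM per kb (SD, n = 12 libraries). Acta2 followed at 51.5 ± 34.2 CPM per kb and Cald1 at 39.5 ± 5.98 CPM per kb. Each of these 4 genes overlapped its neighbours in the order over the libraries, although Tpm2, at 55.1 CPM per kb or more, lay above Cald1, at 48.5 or less. Vcl lay at 21.9 ± 2.43 and Srf at 15.7 ± 0.888 CPM per kb, with ranges that did not overlap each other. Myl9 was at 5.10 ± 2.35 CPM per kb. Cnn1, Actg2 and Tagln, 3 genes of differentiated smooth muscle, were lowest, at 0.645 ± 0.128, 0.556 ± 0.366 and 0.184 ± 0.111 CPM per kb. Actg2 overlapped both of the others, which did not overlap each other. Tpm2 ranked above 95.4% of the 13608 tested genes in level per length, and Tagln above 5.0%. The place of Tagln is uncertain, since 67.9% of its exon bases overlap exons on the other strand. The library kit does not keep strand, and the level was divided by the full exon length all the same.

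Of the comparisons made, the one between suffixes called the most members. Its p-values measure the spread between libraries around the group and suffix terms. Each suffix was a single set of libraries, so they do not measure how far such sets differ from one another in general. With suffix _290419, 6 of the 9 tested members were higher and 1 was lower by the quasi-likelihood F test of edgeR, fitted with a term for each group (adjusted p under 0.05), while 22.2% of the 13608 tested genes were higher and 23.5% were lower. The median log2 fold change was 0.45 over the 9 members and 0.01 over all tested genes. Acta2, Actg2, Myl9, Tpm1, Tpm2 and Cald1 were the higher members, Vcl was the lower one, and Srf and Cnn1 did not pass the test. Since whole populations were sequenced, a larger share of cells with a contractile programme and more RNA per cell cannot be told apart. In the 8 libraries of number 2 alone, where number does not differ between the suffixes, the same 7 members were called. Tagln was called there too, but it passed the filter through its libraries of suffix _290419, where it was high, and lends no support.

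**Figure D2:**
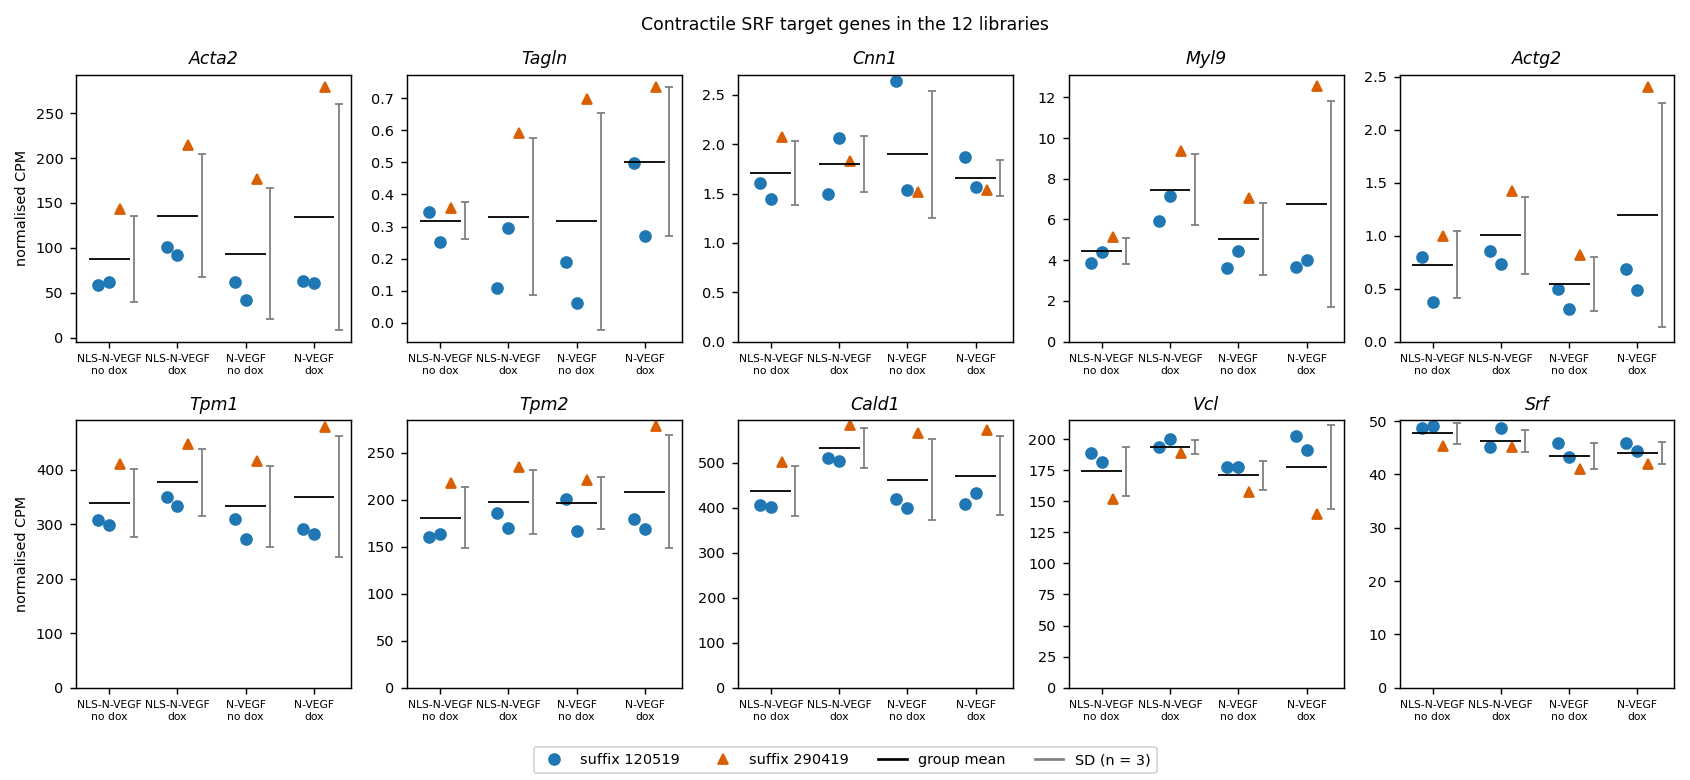
Normalised CPM of the 10 members (y axis) in the 4 groups (x axis), with 1 point per library, circles for suffix _120519 and triangles for suffix _290419, a black line at the group mean and a grey bar for the SD (n = 3). The triangle lies above both circles in all 4 groups for Acta2, Tagln, Myl9, Actg2, Tpm1, Tpm2 and Cald1, and below both for Vcl and Srf. The share of all tested genes with such an order was not counted.

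Acta2 (ENSMUSG00000035783, chr19:34241090-34255336, minus strand) encodes smooth muscle alpha actin, the actin isoform by which myofibroblasts are recognised. The positions given with each gene span it from end to end on GRCm38. Uninduced NLS-N-VEGF cells held 58.7 and 61.7 CPM in libraries 1 and 2 of suffix _120519 and 143 CPM with suffix _290419. When induced, they held 101, 92.5 and 214 CPM in the same order. N-VEGF cells were at 62.1, 42.3 and 177 CPM uninduced, and at 63.3, 60.7 and 279 CPM induced. All 4 libraries of suffix _290419 lay above all 8 of suffix _120519, a separation found in the same direction for 13.1% of tested genes. Within the groups, suffix _290419 was 2.22-fold to 4.51-fold above the mean of the other 2 libraries. The fitted log2 fold change was 1.60 ± 0.12 (SE, adjusted p = 1.40e-07 in edgeR), a 3.03-fold difference.

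Actg2 (ENSMUSG00000059430, chr6:83512905-83536265, minus strand) encodes the gamma actin isoform of visceral smooth muscle and was a low gene in these cells, with 5 to 36 counts per library. Over the 8 libraries of suffix _120519 its lowest, median and highest values were 0.308, 0.594 and 0.856 CPM. The 4 libraries of suffix _290419 held 0.998 and 1.42 CPM in uninduced and induced NLS-N-VEGF cells, and 0.815 and 2.41 CPM in N-VEGF cells. The library of suffix _290419 was the highest of its group in 4 of 4 groups, although the 2 sets overlapped. The share of all tested genes with such an order in 4 of 4 groups was not counted, here or for the members below. The log2 fold change was 1.21 ± 0.27 (SE, adjusted p = 0.00171). Its call was lost when the 6 uninduced libraries were tested alone and when NLS-N-VEGF libraries were tested alone, with adjusted p = 0.176 and 0.0855 among 20 alternatives that ranged from 3.67e-05 to 0.176.

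Myl9 (ENSMUSG00000067818, chr2:156775420-156781658, plus strand) encodes the regulatory light chain of smooth muscle myosin, the phosphorylation of which starts contraction. Its values with suffix _120519 were 3.64 CPM at the lowest, 4.20 at the median and 7.13 at the highest. With suffix _290419 it reached 5.13 and 9.34 CPM in uninduced and induced NLS-N-VEGF cells, and 7.04 and 12.6 CPM in N-VEGF cells. The library of suffix _290419 was again the highest in each group, and the sets overlapped through the 2 induced NLS-N-VEGF libraries of suffix _120519, at 5.94 and 7.13 CPM. The log2 fold change was 0.87 ± 0.17 (SE, adjusted p = 0.000503). Without the induced N-VEGF library of suffix _290419 it was 0.55 (adjusted p = 0.00497), and in the 6 uninduced libraries alone 0.58 (adjusted p = 0.0567), among 21 alternatives with adjusted p from 2.49e-11 to 0.0567.

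The tropomyosins, which lie along actin filaments and govern the access of myosin to them, moved less in proportion but separated the suffixes completely. Tpm1 (ENSMUSG00000032366, chr9:67022590-67049406, minus strand) was between 272 and 351 CPM (median 303) with suffix _120519. It was at 410 and 448 CPM in uninduced and induced NLS-N-VEGF cells and at 417 and 479 CPM in N-VEGF cells with suffix _290419. Its log2 fold change was 0.52 ± 0.06 (SE, adjusted p = 5.08e-06). Tpm2 (ENSMUSG00000028464, chr4:43514711-43523765, minus strand) was between 160 and 201 CPM (median 169) with suffix _120519, and at 218, 235, 221 and 278 CPM with suffix _290419 in the same order of groups. The log2 fold change of Tpm2 was 0.45 ± 0.07 (SE, adjusted p = 5.38e-05). With Acta2, these were the 3 members whose 4 libraries of suffix _290419 all exceeded the other 8. None of the members lay wholly below, against 14.9% of tested genes.

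Cald1 (ENSMUSG00000029761, chr6:34598500-34775473, plus strand) encodes caldesmon, which binds actin and restrains the myosin motor. It was at 400 to 510 CPM (median 415) with suffix _120519. Its 4 libraries of suffix _290419 held 503 and 584 CPM in NLS-N-VEGF cells and 566 and 572 CPM in N-VEGF cells, uninduced and induced in turn. The overlap came from induced NLS-N-VEGF cells of suffix _120519, whose 2 libraries were at 510 and 504 CPM. The log2 fold change was 0.36 ± 0.05 (SE, adjusted p = 6.17e-05).

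Calponin and transgelin are actin-binding proteins that serve as markers of differentiated smooth muscle. Cnn1 (ENSMUSG00000001349, chr9:22099216-22109630, plus strand), which encodes calponin, had 23 to 42 counts per library. Its values were 1.44, 1.59 and 2.64 CPM at the lowest, median and highest with suffix _120519, and 1.51 to 2.07 CPM with suffix _290419, within the first range. The log2 fold change was -0.03 ± 0.20 (SE, adjusted p = 0.915, 95% interval -0.43 to 0.37), so that the direction of a difference was not detectable. Tagln (ENSMUSG00000032085, chr9:45929619-45936058, minus strand), which encodes transgelin, had 6, 4 and 5 counts in uninduced NLS-N-VEGF cells and 2, 4 and 10 in induced ones, with suffix _290419 given last. N-VEGF cells had 3, 1 and 12 counts uninduced and 8, 5 and 11 induced. The library of suffix _290419 had the highest CPM in 4 of 4 groups, from 1.2-fold to 5.59-fold above the mean of the others. DESeq2's Wald test, run without the edgeR filter on low counts, gave a log2 fold change of 1.31 ± 0.54 (SE, adjusted p = 0.0436). Tagln reached the filter's minimum of 10 counts in libraries of suffix _290419 alone, so its calls in fits that let it through are not given as support. Several of its libraries were at or under the limit of 3 counts, and 67.9% of its exon bases overlap the exons of Pcsk7 and Gm48529 on the other strand. The library kit does not keep strand, so reads of these genes and of Tagln cannot be told apart there.

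Vcl (ENSMUSG00000021823, chr14:20929398-21033676, plus strand) encodes vinculin, which links actin filaments to cell-matrix adhesions. It went the other way. Over suffix _120519 its lowest, median and highest values were 178, 190 and 203 CPM. With suffix _290419 it was at 152 and 189 CPM in uninduced and induced NLS-N-VEGF cells and at 157 and 140 CPM in N-VEGF cells. The library of suffix _290419 was the lowest of its group in 4 of 4 groups, with ratios of 0.708 to 0.958, and the sets overlapped through the induced NLS-N-VEGF library. The log2 fold change was -0.25 ± 0.06 (SE, adjusted p = 0.00325). It was -0.22 in the 6 uninduced libraries alone, with adjusted p = 0.0631, the highest of 21 alternatives that began at 8.18e-05. Of the exon bases of Vcl, 25.5% overlap exons of Ap3m1 on the other strand, and the same limit on strand applies.

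Srf (ENSMUSG00000015605, chr17:46548329-46556175, minus strand) itself varied little. Its 12 values ran from 41.0 to 49.1 CPM, around a mean of 45.4 ± 2.57 CPM (SD, n = 12). With suffix _120519 they were 43.3 CPM at the lowest, 45.9 at the median and 49.1 at the highest, and with suffix _290419 they were 45.4, 45.1, 41.0 and 41.9 CPM in uninduced and induced NLS-N-VEGF cells and then in N-VEGF cells likewise. The library of suffix _290419 was the lowest of its group in 4 of 4 groups, by ratios of 0.920 to 0.960, although the sets overlapped. How common this order is among all tested genes was not counted. The fitted log2 fold change of -0.10 ± 0.05 (SE) did not pass the edgeR test (adjusted p = 0.126, 95% interval -0.20 to 0.00).

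For dox, which induces the construct, no member passed the test fitted without a replicate term. In NLS-N-VEGF cells 0 of 9 members were called in edgeR, where 0.022% of tested genes were called, and 0 had an unadjusted p under 0.05. In N-VEGF cells 0 of 9 were called against 0.0367% of genes, and for the mean dox effect over both populations 0 of 9 against 0.0588%, again with 0 members at an unadjusted p under 0.05. DESeq2's Wald test called 0 members in these comparisons too. The fitted effect was above 0 for 8 of 9 members in each population, against 50.1% of tested genes in NLS-N-VEGF and 50.6% in N-VEGF cells, with member medians of 0.16 and 0.07 on the log2 scale. The libraries with the same number and suffix varied together across groups, as did those that shared the suffix alone. Within suffix _120519 the first kind of pair was only slightly closer, with mean correlations of 0.521 and 0.507 against 0.471. A fit with number and suffix as a replicate block removed that shared variation.

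With the replicate block, 1 member passed the test for the mean dox effect, and 4 of 9 had an unadjusted p under 0.05, against 9.30% of tested genes. The mean log2 effect of dox on Acta2 was 0.54 ± 0.12 (SE, adjusted p = 0.0453 in edgeR), a 1.45-fold difference, where 0.566% of tested genes were called. Acta2 was higher with dox in 6 of 6 same-labelled pairs. The ratio was 1.5 to 1.71 in the 3 NLS-N-VEGF pairs and 1.02 to 1.58 in the 3 N-VEGF pairs, the lowest being library 1 of N-VEGF cells. The share of all tested genes that were higher with dox in every pair was not counted, here or for the members below. Over 20 alternatives to the fit without the block, the log2 effect ran from 0.02 to 0.98 and the adjusted p from 1.51e-07 to 1.0, with the call made in 2 of them. The other call came without the filter on low counts, and the block with DESeq2's Wald test gave adjusted p = 0.184. With the suffix alone as a covariate in edgeR the effect was 0.54 ± 0.12 (SE) and the call was lost (adjusted p = 0.0660), and in the 8 libraries of suffix _120519 it was 0.46 ± 0.10 (SE, adjusted p = 0.0687). The construct had its highest count, 268, in the induced N-VEGF library of suffix _290419, in which Acta2 also had its highest value. Over the induced libraries the construct was at 2.57 to 8.07 CPM with suffix _120519 and at 10.2 to 17.9 CPM with suffix _290419, and the part of this difference in the member results was not tested. Without that library the mean effect in the unblocked fit was 0.02, a fit in which the induced and uninduced libraries are unequal in suffix.

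Taken by population with the block, Acta2 did not pass. Of the 9 members, 3 had an unadjusted p under 0.05 in NLS-N-VEGF cells and 2 in N-VEGF cells, against 7.27% and 5.40% of tested genes. Its log2 effect was 0.65 ± 0.16 (SE, adjusted p = 0.213) in NLS-N-VEGF cells, where 0.125% of genes were called, and 0.42 ± 0.16 (SE, adjusted p = 0.825) in N-VEGF cells, where 0.11% were. Over its 20 alternatives the adjusted p ran from 0.000409 to 1.0 in NLS-N-VEGF cells and from 0.0546 to 1.0 in N-VEGF cells. The difference of these effects was 0.23 ± 0.23 (SE, adjusted p = 1.0, 95% interval -0.23 to 0.68), so that neither population was shown to respond more.

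Myl9, Cald1, Actg2, Tpm1, Tpm2 and Vcl also had ratios above 1 in all 3 NLS-N-VEGF pairs, without passing the edgeR test. Myl9 was at 3.85, 4.39 and 5.13 CPM uninduced and at 5.94, 7.13 and 9.34 CPM induced, a ratio of 1.54 to 1.82. The blocked log2 effect on Myl9 was 0.72 ± 0.23 (SE, adjusted p = 0.350). Cald1 went from 407, 403 and 503 CPM to 510, 504 and 584 CPM, a ratio of 1.16 to 1.25. The blocked effect on Cald1 was 0.29 ± 0.08 on the log2 scale (SE, adjusted p = 0.229 in edgeR). DESeq2's Wald test with the block called it (adjusted p = 0.0447), the lowest of 20 alternatives that reached 1.0. In N-VEGF cells Cald1 had ratios of 0.971 to 1.08.

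Actg2, at 5 to 36 counts per library, had ratios of 1.06 to 1.95 in NLS-N-VEGF cells and 1.37 to 2.95 in N-VEGF cells. They were above 1 in 6 of 6 pairs, and the blocked mean log2 effect was 0.75 ± 0.26 (SE, adjusted p = 0.321). Tpm1 lay at 1.09 to 1.14 and 0.940 to 1.15, Tpm2 at 1.04 to 1.16 and 0.893 to 1.26, and Vcl at 1.02 to 1.24 and 0.888 to 1.14 in NLS-N-VEGF and N-VEGF cells. Cnn1 lay at 0.886 to 1.43 and 0.710 to 1.02. Srf was within 0.929 to 1.02 in all 6 pairs, with a blocked mean log2 effect of -0.01 ± 0.05 (SE, adjusted p = 0.967, 95% interval -0.11 to 0.09). Tagln, at these counts, gave 0.310 to 4.40.

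**Figure D3:**
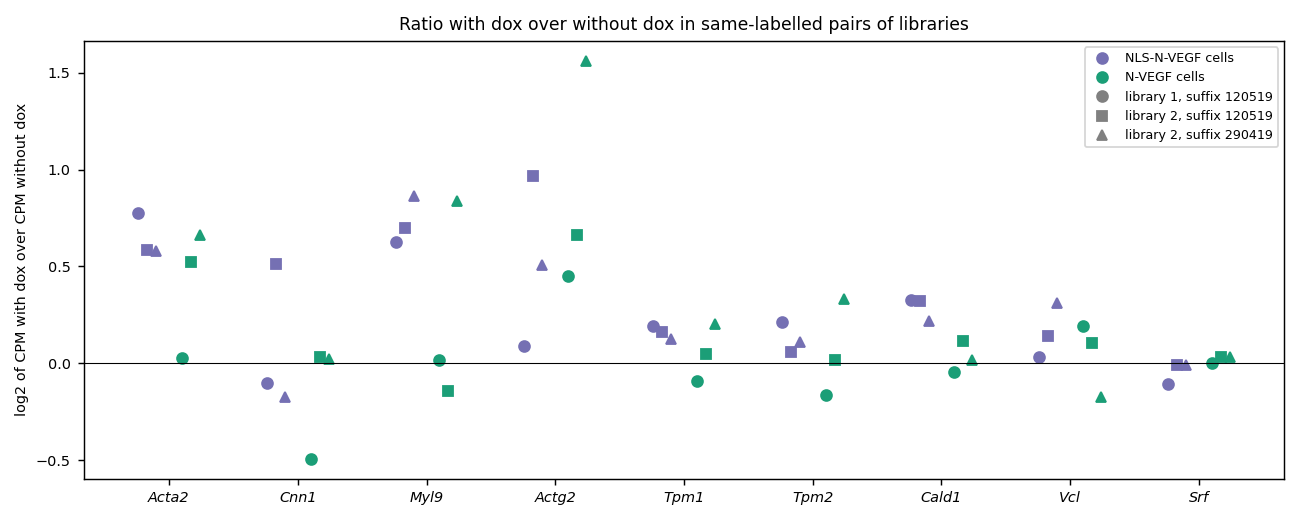
Ratio of CPM with dox over CPM without dox on the log2 scale (y axis) for the 9 tested members (x axis), with 1 point per same-labelled pair, purple for NLS-N-VEGF and green for N-VEGF cells and a shape for each label. Acta2 and Actg2 lie above 0 in all 6 pairs, and Srf lies close to 0. The share of all tested genes above 0 in all 6 pairs was not counted.

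For the nuclear localization sequence, no member passed a test either. Induced NLS-N-VEGF cells and induced N-VEGF cells differed in 0 of 9 members (0.0% of genes called in edgeR), and the uninduced cells in 0 of 9 (0.0%), with 0 members at an unadjusted p under 0.05 in each. DESeq2's Wald test called 0 members as well. The difference of dox effects was called for 0 of 9 members and 0.0% of genes, again with 0 members at an unadjusted p under 0.05. With the replicate block, 1 member, Cald1, had an unadjusted p under 0.05 for this difference and for induced NLS-N-VEGF against induced N-VEGF cells, and neither passed the adjustment (adjusted p = 1.0 and 0.992 in edgeR). In the fit without the block, the difference of dox effects farthest from 0 among members was that of Actg2. It was -0.62 ± 0.87 (SE, 95% interval -2.32 to 1.08), and the interval of Acta2 in that fit was -1.72 to 1.94. The dox effect did not differ detectably between the suffixes either (0 of 9 members and 0 at an unadjusted p under 0.05 in edgeR, 0.0% of genes). For Acta2 that difference was 0.17 ± 0.26 (SE, adjusted p = 0.877, 95% interval -0.35 to 0.69).

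**Figure D4:**
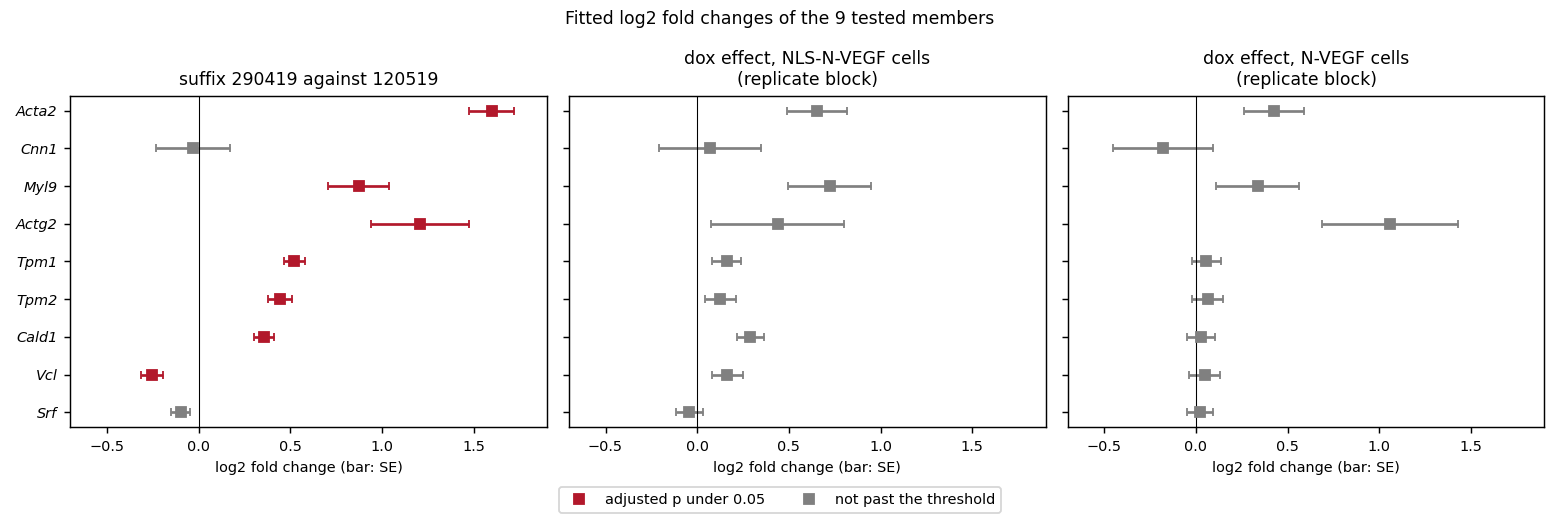
Fitted log2 fold changes (x axis, bars are SE) of the 9 tested members for suffix _290419 against _120519 and, with the replicate block, for dox in NLS-N-VEGF and in N-VEGF cells, with red for an adjusted p under 0.05. In the first panel 7 members pass, led by Acta2 at 1.60, and in the dox panels none does.

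Genes of the partners of SRF differed between suffixes in both directions. Of 9 genes in that list 6 were tested between suffixes, with 2 higher and 2 lower and a median log2 fold change of 0.05. Over all tested genes 22.2% were higher and 23.5% lower, so such counts are near the general share. Mkl1 and Mkl2, the genes of MRTF-A and MRTF-B, were lower with suffix _290419, at -0.20 ± 0.06 (SE, adjusted p = 0.0211) and -0.22 ± 0.06 (SE, adjusted p = 0.00816). Mkl1 held 80.02 to 103 CPM with suffix _120519 and 71.1 to 80.9 CPM with suffix _290419. Fhl2, a LIM protein that binds SRF, was higher at 0.34 ± 0.06 (SE, adjusted p = 0.000134). Myocd, the gene of myocardin, had 0 counts in all 12 libraries, and Elk1, at -0.01 ± 0.07 (SE, adjusted p = 0.900), gave no detectable difference.

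Among 23 further SRF targets of the actin cytoskeleton, all tested, 9 were higher and 4 lower with suffix _290419, and the median was 0.14. The shares over all tested genes were 22.2% higher and 23.5% lower. Actg1, a cytoplasmic actin, ran from 2107 to 2852 CPM with suffix _120519 and from 3166 to 3637 CPM with suffix _290419 (log2 fold change 0.53 ± 0.08, SE, adjusted p = 5.28e-05). Actb, the other cytoplasmic actin, was at 0.15 ± 0.08 (SE, adjusted p = 0.135). Tgfb1i1 (Hic-5), an adhesion protein, was at 0.59 ± 0.07 (SE, adjusted p = 6.55e-06), while Myh10, a non-muscle myosin heavy chain, was lower at -0.38 ± 0.06 (SE, adjusted p = 6.85e-05). Of 13 other smooth muscle genes 6 were tested, 3 of which were higher and 0 lower, and the median was 0.23. They were Synpo2 at 1.23 ± 0.22, Flnc at 0.48 ± 0.06 and Mylk, the myosin light chain kinase, at 0.38 ± 0.10 on the log2 scale (SE, adjusted p = 0.000319, 1.22e-05 and 0.00719). Synpo2 was at 0.377 to 0.735 CPM with suffix _120519 and 1.05 to 1.42 CPM with suffix _290419. Its median over the 12 libraries was 0.602 CPM. It passed the filter on low counts through its libraries of suffix _290419, where it was high, so its call lends no support. Myh11, the smooth muscle myosin heavy chain, did not pass the filter, with at most 0.713 CPM.

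Genes of neighbouring pathways moved in both directions, as did all tested genes, of which 22.2% were higher and 23.5% lower. Of 8 targets of YAP and TEAD 3 were higher and 0 lower (median 0.20), among them Ankrd1, a nuclear protein induced by stretch, at 1.15 ± 0.10 (SE, adjusted p = 3.23e-07). Of 13 tested genes of the TGF-beta and matrix list 4 were higher and 5 lower (median -0.14). Ctgf, a matricellular factor, was higher at 1.08 ± 0.11 (SE, adjusted p = 1.75e-06), and Fn1, fibronectin, was lower at -0.55 ± 0.08 (SE, adjusted p = 2.85e-05). The immediate early genes that SRF controls with ternary complex factors had 2 higher and 4 lower of 8 (median -0.36), with Ier2 at -0.81 ± 0.07 (SE, adjusted p = 3.39e-07). In N-VEGF cells with the block, Egr1 of that list was higher with dox at 1.17 ± 0.20 (SE, adjusted p = 0.0241). Cell cycle genes had 2 higher and 2 lower of 10 (median 0.04).

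Markers of cell identity moved with the suffix as well. Of 10 tested fibroblast markers 4 were higher and 3 lower, against 22.2% and 23.5% of all tested genes. The higher ones include Lum, at 0.063 CPM or less with suffix _120519. Lum passed the filter on low counts through suffix _290419, where it was high, and lends no support. Pdgfra, a receptor of fibroblasts, fell from a range of 275 to 427 CPM to one of 92.8 to 168 CPM (log2 fold change -1.32 ± 0.09, SE, adjusted p = 3.31e-08). Thy1 rose by 0.53 ± 0.05 on the log2 scale (SE, adjusted p = 1.75e-06). Pdgfra and Dcn were also lower with dox in the blocked mean effect, at -0.49 ± 0.08 and -0.54 ± 0.09 (SE, adjusted p = 0.00419 and 0.00578). Cspg4, a mural cell marker, was higher with suffix _290419 at 0.27 ± 0.06 (SE, adjusted p = 0.000865), at 170 to 235 CPM with suffix _120519 and 219 to 275 CPM with suffix _290419. It made up nearly all of the sum of the 5 mural markers, since Rgs5, Notch3 and Abcc9 had at most 0.428 CPM and Kcnj8 had 0 in every library. The summed leukocyte markers were at 2.81 to 4.08 and 5.35 to 6.11 CPM, mostly from Cd68, with Cd3e at 0. The part of these markers in the member results was not tested.

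**Figure D5:**
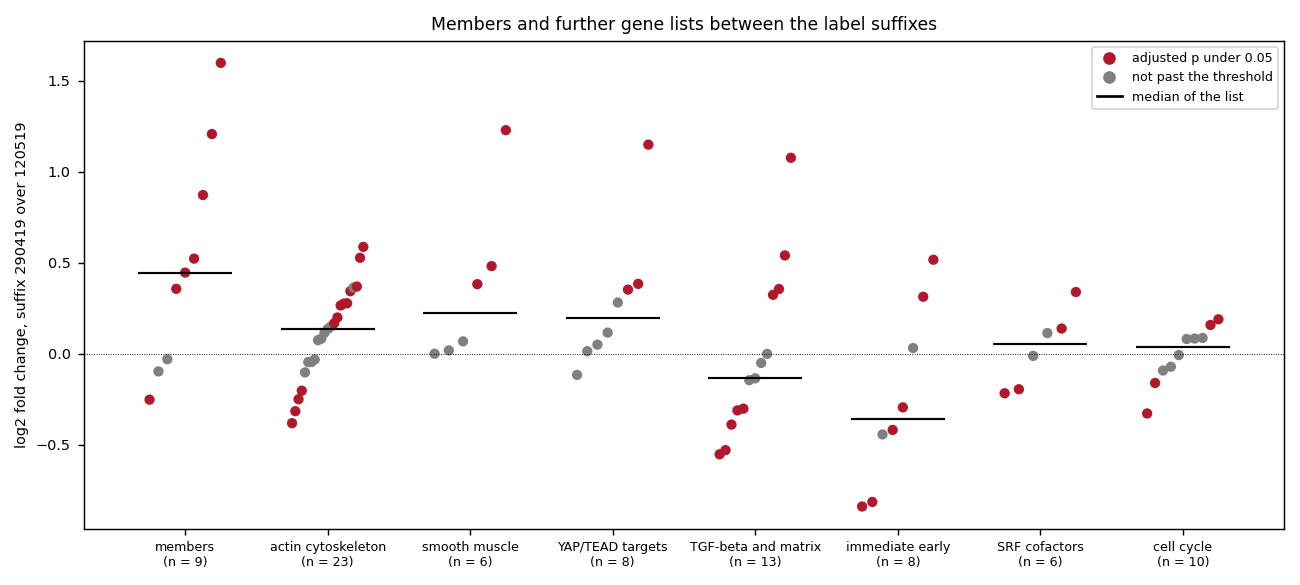
Log2 fold change of suffix _290419 over _120519 (y axis) for each tested gene of the members and of 7 further lists (x axis, n is the number of tested genes), with red for an adjusted p under 0.05 and a line at each median. The median is 0.45 for the members, 0.23 for other smooth muscle genes, 0.20 for YAP/TEAD targets, 0.14 for actin cytoskeleton targets and -0.36 for immediate early genes.

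Within suffix _120519, over 8 libraries that come from the same 4 groups, the members did not vary as a single set. Over 36 pairs of members Pearson's r ran from -0.305 to 0.919 with a median of 0.36, and 5 pairs were below 0. Acta2 went most closely with Tpm1 (r = 0.92) and Cald1 (r = 0.91) and less so with Srf (r = 0.35), Tpm2 (r = 0.33) and Cnn1 (r = 0.12). The lowest value was that of Tpm2 with Srf. The genes most like the mean standardised member among 12049 ranked were Aph1b (r = 0.976), Chd1l (0.969), Snx4 (0.964), Timm17a (0.961), Specc1 (0.959) and Wdfy4 (0.955), over the same 8 libraries. No test was made of these correlations, and the highest of 12049 values over 8 libraries may be high by selection alone.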

How the data were processed

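RNA of 12 libraries was prepared with an unstranded TruSeq RNA kit (version 2) and sequenced as single reads. Per the labels, the authors used FastQC 0.11.5, Trim Galore with cutadapt 1.10, TopHat2 2.1.0 with Bowtie2 2.2.6 on GRCm38 and HTSeq 0.6.1, and their DESeq2 was version 1.18.1. The deposited table holds raw gene counts without normalization, and the counting option for strand is not given in the sources used here. Groups came from the labels, and every value column was matched to a library.

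Counts were tested with edgeR 4.0.16 (R 4.3.3): filterByExpr by group (minimum count 10), which kept 13608 of 54447 features, TMM scaling, a quasi-likelihood F test with 1 mean per group, and Benjamini-Hochberg adjustment over all tested genes, two-sided, called under 0.05. The suffix was tested with group in the model. SE were derived from the F statistic. CPM used TMM-scaled totals, and lengths were exon unions of GENCODE M21 (GRCm38). No 80-base window of a member's transcripts occurred in transcripts of another gene (0% of windows). Scripts were tested on simulated counts.

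Number and suffix formed 3 replicate labels. Over 12057 genes, deviations from group means correlated by 0.40 to 0.83 in all 18 same-labelled pairs of libraries, so the labels were taken to pair the libraries. The 12 pairs that shared the suffix but not the number correlated by 0.144 to 0.678, and the 24 pairs of unlike suffix by -0.763 to -0.349, so the suffix carried much of the pairing. Within suffix _120519, same-labelled pairs correlated on average by 0.521 (number 1) and 0.507 (number 2), and pairs of unlike number by 0.471. Number therefore added little to the pairing there. The coefficient of variation was 7.86% with this block and 15.5% without.

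Alternatives were DESeq2 1.42.0, RLE scaling, other filters, the replicate block, the suffix as covariate, subsets of libraries and each library left out. The block in DESeq2 was added after seeing the data. The members and gene lists were chosen with earlier results of these data known. All 10 members are named. Genes named from each further list are among its 4 called genes with the largest changes in a comparison, beside Mkl1, Mkl2, Myocd, Actb and Actg1. Elk1 and Myh11 were added after their values were seen.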

Additional observations from a re-analysis of the deposited data

Results flagged for a closer look

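Srf was singled out because its values moved in opposite directions with dox in the 2 populations. It was lower with dox in 3 of 3 same-labelled pairs of NLS-N-VEGF cells (ratios 0.929 to 0.993) and higher in 3 of 3 pairs of N-VEGF cells (1.0 to 1.02). How many of all tested genes show such opposite orders was not counted. For Srf the ratio of 0.929 was that of library 1 of NLS-N-VEGF cells, and the library 2 pairs there were at 0.993. The median log2 ratio of NLS-N-VEGF cells minus that of N-VEGF cells was -0.042. The difference itself did not pass edgeR's test, at -0.07 ± 0.11 on the log2 scale (SE, adjusted p = 1.0, 95% interval -0.29 to 0.16). No library of a member stood apart from the others of its suffix by Dixon's criterion, in 20 sets tested, of which chance singles out about 1 in 20.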

How the results depend on the processing

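Between the suffixes, the number of members called was 7 in the fit as reported and 7 to 8 when each library was left out in turn, the eighth being Tagln, which passed the filter there through its libraries of suffix _290419, where it was high, and so lends no support. It was 4 in the uninduced libraries alone, where Myl9, Actg2 and Vcl were not called. Tagln was also called in the libraries of number 2 alone, with the same limit. For dox in NLS-N-VEGF cells, 0 members were called as reported, 1 (Acta2) without the filter on low counts and 1 (Cald1) with the replicate block in DESeq2. For the mean dox effect, 0 were called as reported, 1 (Acta2) without the filter and 1 (Acta2) with the replicate block in edgeR, a call lost with the suffix as covariate (adjusted p = 0.0660). The block changed no other call of a member. Leaving out each library gave 0 to 0 members in all other comparisons. The causes of these differences were not tested. No called value changed sign. Counts limit Tagln, Actg2 and Cnn1, and 3 libraries a group, 1 of them of suffix _290419, limit every dox comparison.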
